A study of Mus musculus with 13 samples.

Results

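The BCL2 family decides whether a cell under stress keeps its mitochondria intact, and 10 of its genes were followed here in mouse hepatocytes across 7 culture conditions. The genes were Bcl2, Bcl2l1, Mcl1, Bax, Bak1, Bcl2l11, Bid, Bbc3, Bad and Pmaip1. They were chosen by name and matched by gene symbol. Each symbol was found once among the 27141 genes of the count and FPKM tables, and all 10 were among the 19884 genes that passed the filter on low counts. FPKM relates the count of a gene to its length and to the depth of its library.

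The cells were damaged hepatocytes (dHeps), which are hepatocytes from the livers of wild-type mice injured with carbon tetrachloride (CCl4). Every group carried this injury, and every culture was kept in the same serum-free hepatocyte maintenance medium until day 16. The solvent group received DMSO. The 5C group received 5 compounds, namely GSK429286A (G, an inhibitor of the kinase ROCK), CID755673 (C, an inhibitor of protein kinase D), ETC-1002 (E, an activator of AMPK), Salidroside (S, a glycoside from plants) and forskolin (F, which switches on adenylate cyclase). The other groups, 5C-C, 5C-S, 5C-G, 5C-F and 5C-E, received the cocktail without the compound named by the last letter. Each group had 2 libraries, called A and B, except 5C-S, which had 1. The letters pair nothing across groups. The study's methods say that n always counts biological replicates, but the sources used here do not say whether the libraries of a group are separate cultures of the same cells or separate animals, so p-values measure only the spread between these samples. The methods give the age at injury, that of young adults, for tdTomato reporter mice, while the labels list these samples as wild type with no strain or age, and pooling of animals was not given.

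In the mitochondrial pathway of apoptosis, BAX and BAK1 form pores in the outer mitochondrial membrane, cytochrome c leaks out, and caspases are switched on. BCL2, BCL-XL (encoded by Bcl2l1) and MCL1 hold these effectors in check. The BH3-only proteins BIM (Bcl2l11), BID, PUMA (Bbc3), BAD and NOXA (Pmaip1) sense stress and either block the guardians or activate the effectors. Hepatocytes are known to rely on BCL-XL and MCL1 for survival, and BID links death receptors at the hepatocyte surface to the mitochondria. Many of these proteins are controlled after translation, by phosphorylation, cleavage or degradation, so an mRNA level is one layer of their regulation.

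What the family shares is the BH3 motif, the short helix through which pro-apoptotic members dock into a groove of the guardians. The coding bases of its core are shown for 9 genes, because this element, present in guardians, effectors and BH3-only proteins alike, is what makes them 1 family. They were read 5′ to 3′ on the coding strand from the GENCODE M39 transcripts of build GRCm39. Capitals mark the codon of the core leucine and the pair of adjacent codons that ends with the core aspartate.
Bcl2: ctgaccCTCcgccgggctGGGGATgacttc
Bcl2l1: caagcgCTGagagaggcaGGCGATgagttt
Mcl1: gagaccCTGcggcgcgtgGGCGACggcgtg
Bax: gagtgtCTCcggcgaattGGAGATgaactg
Bak1: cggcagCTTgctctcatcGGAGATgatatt
Bcl2l11: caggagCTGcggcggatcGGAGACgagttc
Bid: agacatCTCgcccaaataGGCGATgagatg
Bbc3: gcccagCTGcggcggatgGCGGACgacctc
Bad: cgtgagCTCcgaaggatgAGCGATgagttt
Each stretch of 30 bases was the only place in its coding sequence that matched the core searched for, and it started at coding base 274 in Bcl2, 262 in Bcl2l1, 574 in Mcl1, 181 in Bax, 220 in Bak1, 442 in Bcl2l11, 262 in Bid, 415 in Bbc3 and 319 in Bad.

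The genes are spread over the mouse genome (GRCm39, GENCODE M39 annotation). Among the guardians, Bcl2 (ENSMUSG00000057329) lies at chr1:106465908-106642060 on the minus strand, Bcl2l1 (ENSMUSG00000007659) at chr2:152622582-152673655 on the minus strand, and Mcl1 (ENSMUSG00000038612) at chr3:95566026-95570487 on the plus strand. The effectors Bax (ENSMUSG00000003873) and Bak1 (ENSMUSG00000057789) lie on minus strands at chr7:45111015-45116325 and chr17:27238784-27247983. Of the BH3-only genes, Bcl2l11 (ENSMUSG00000027381) lies at chr2:127967958-128004476, Bbc3 (ENSMUSG00000002083) at chr7:16042318-16052130 and Bad (ENSMUSG00000024959) at chr19:6918902-6929280, all on plus strands, and Bid (ENSMUSG00000004446) at chr6:120862525-120894171 on the minus strand. Pmaip1 is on chromosome 18. The handling of strand in the counting was not given in the sources used here, and exons of 7 genes overlap those of a gene on the opposite strand: D630008O14Rik for Bcl2, Gm74855 for Bcl2l1, Gm75592 for Bcl2l11, Gm73431 for Bax, Ggnbp1 and Gm50253 for Bak1, Gm56656 and Gpr137 for Bad, and Bcl2l13 and Gm17812 for Bid. Reads of such a pair cannot be told apart where strand was ignored. Exons of Bax and Bcl2l11 also overlap those of a gene on the same strand, Gm45808 and Gm74510, which counting by strand would not separate. No overlap was annotated for Mcl1, Bbc3 or Pmaip1. Counts per gene also add up splice forms of opposite effect, such as the long and short forms of Bcl2l1 and Mcl1, which are not separated here.

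Total counts ran from 30195867 to 45491932 per library, and the lowest count of any of the 10 genes was 118, for Bcl2 in 5C-C A. No pair of libraries of a group looked like 1 library deposited again, since their counts differed beyond sampling noise. Hepatocyte markers were present everywhere, with 7 of the 8 listed genes found and a summed level between 3317 FPKM (5C-E) and 22550 FPKM (5C-F). Markers of other liver cells were present too. All 10 macrophage and Kupffer cell genes were found, and their sum was 4903 to 4928 FPKM in DMSO, 505 to 590 in 5C, 5012 to 7073 in 5C-G, 979 to 1673 in 5C-C, 699 to 819 in 5C-E, 1607 to 1941 in 5C-F and 614 in 5C-S. Of them Clec4f, which marks Kupffer cells, was at or under 0.784 FPKM in every library and at 0 in 5C A, 5C-E B and 5C-S. All 9 stellate cell and fibroblast genes were found, with sums from 848 FPKM (5C-F) to 2303 FPKM (5C-G), and all 5 cholangiocyte genes, with sums from 1456 FPKM (5C-S) to 3422 FPKM (5C-F). The 6 endothelial genes summed to at most 89.4 FPKM and the 5 lymphocyte and neutrophil genes found, of 6 listed, to at most 4.51 FPKM, with Cdh5 and Pecam1 at 0 in 5C and 5C-F and Cd3e at 0 in DMSO, 5C, 5C-E, 5C-F and 5C-S. Every cell type in the culture expresses BCL2 family genes, and in these bulk samples fewer cells of a type and less RNA per cell cannot be told apart.

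The guardians Mcl1 and Bcl2l1 were the most abundant of the 10 mRNAs per unit of length in 11 of the 13 libraries, and Bcl2 was the scarcest. Mcl1 was first by FPKM in 12 of the 13 libraries and Bcl2 last in all 13. In the exception, 5C-C B, Bax stood first at 63.4 FPKM and Mcl1 second at 45.6 FPKM, and in 5C-G B Bax was second at 56.3 FPKM, above Bcl2l1 at 51.9 FPKM. The third place belonged to Bax in 11 libraries, and Bad and Bak1 followed it in changing order. The BH3-only genes Bbc3, Pmaip1, Bcl2l11 and Bid lay close together below them, between 2.30 and 13.4 FPKM, and their order changed from library to library. The effectors Bax and Bak1 were above these 4 genes in all 13 libraries.

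**Figure D1:**
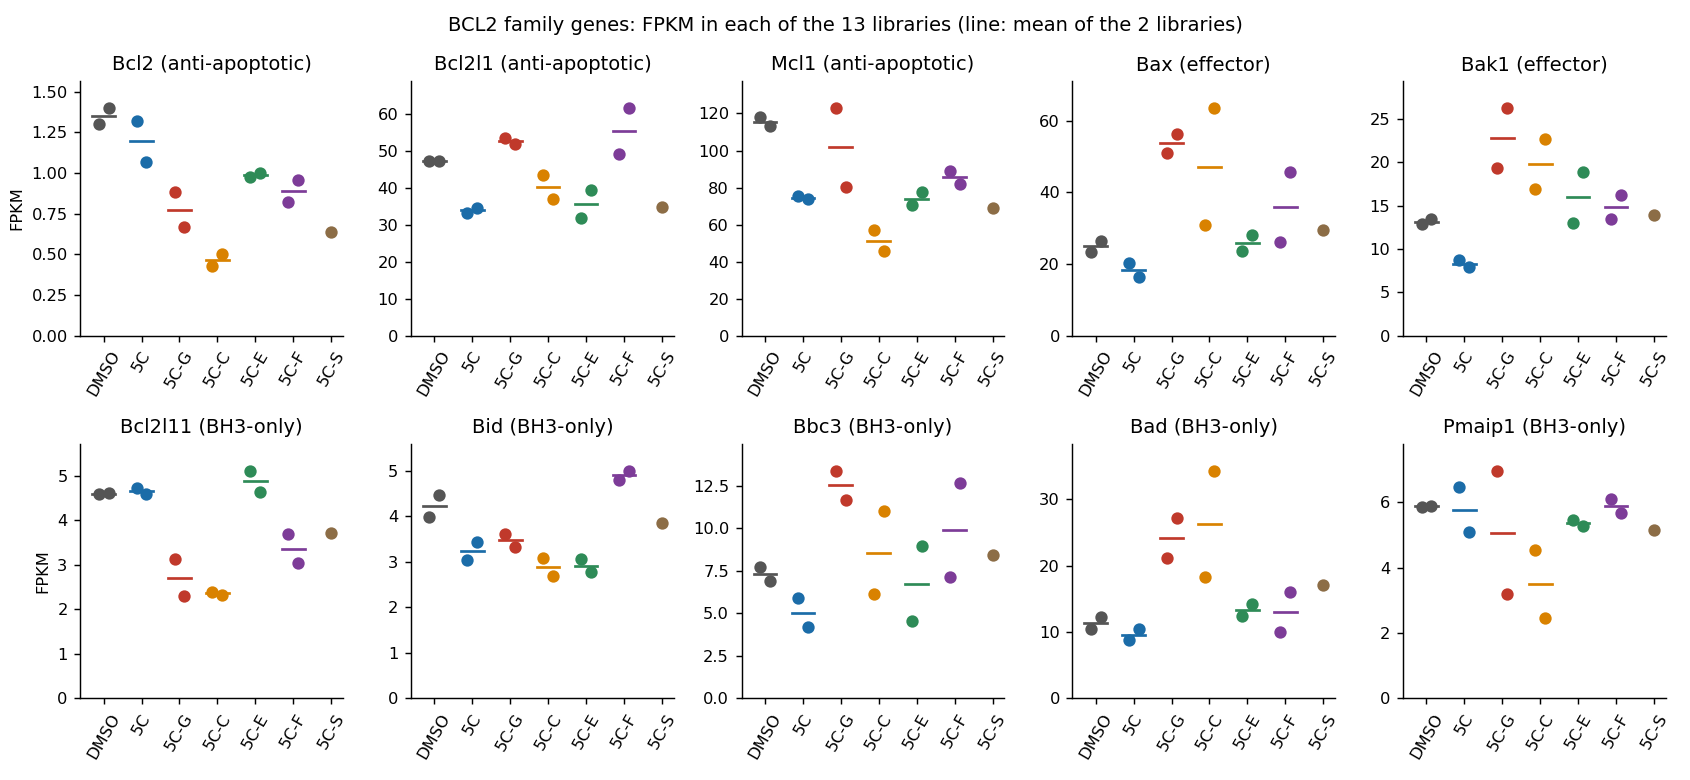
FPKM of the 10 genes (vertical axes, starting at 0) in each of the 13 libraries, grouped by culture condition, with a line at the mean of the 2 libraries of a group. Bax, Bak1 and Bad are lowest in 5C among the 7 groups by their means and highest in 5C-G or 5C-C, while Bcl2 and Bcl2l11 are lowest in 5C-C.

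Bcl2, the founding member of the family, was highest in DMSO at 1.30 and 1.40 FPKM and in 5C at 1.32 and 1.07 FPKM. It was at 0.883 and 0.666 FPKM in 5C-G, 0.426 and 0.503 in 5C-C, 0.974 and 1.00 in 5C-E, 0.824 and 0.959 in 5C-F and 0.637 in 5C-S. Every library without 1 of the compounds lay below both 5C libraries. The test was passed for 5C-C alone, with a log2 fold change against 5C of -1.19 ± 0.26 (SE, edgeR quasi-likelihood test, Benjamini-Hochberg adjusted p = 0.0019), whereas the differences were -0.50 ± 0.26 for 5C-G (adjusted p = 0.169), -0.35 ± 0.25 for 5C-E (adjusted p = 0.586) and -0.33 ± 0.25 for 5C-F (adjusted p = 0.448). With the offset for GC content and length described below, Bcl2 in 5C-C was at -0.44 (adjusted p = 0.233) and did not pass. Against DMSO, 5C differed by -0.25 ± 0.25 (adjusted p = 0.694). All adjusted p-values of single genes below come from the same edgeR fit.

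Bcl2l1, which encodes the guardian BCL-XL, was at 47.2 FPKM in both DMSO libraries and at 33.3 and 34.5 FPKM in 5C. It was at 53.5 and 51.9 FPKM in 5C-G, 49.1 and 61.5 in 5C-F, 43.4 and 37.0 in 5C-C, 31.7 and 39.4 in 5C-E and 34.8 in 5C-S. The libraries without the ROCK inhibitor or without forskolin lay above all DMSO libraries, and those of 5C-E overlapped 5C. Bcl2l1 rose in 5C-G by 0.77 ± 0.17 on the log2 scale against 5C (adjusted p = 0.00312) and in 5C-F by 0.80 ± 0.17 (adjusted p = 0.00789). The difference was 0.41 ± 0.17 for 5C-C (adjusted p = 0.0682) and for 5C-E the fold size was 1.00, with a 95% interval of the log2 fold change from -0.36 to 0.35. Between 5C and DMSO the difference was -0.55 ± 0.17 (adjusted p = 0.0633), and it passed by DESeq2 (-0.56, adjusted p = 0.0119) and with only the compared groups in the fit (-0.55, adjusted p = 3.76e-05). The rise in 5C-G did not pass without 5C A (0.73, adjusted p = 0.051) or with the offset for GC content and length (0.40, adjusted p = 0.0609), nor that in 5C-F without 5C A (0.76, adjusted p = 0.0996), 5C B (0.85, adjusted p = 0.082) or 5C-F B (0.68, adjusted p = 0.0639).

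Mcl1, the guardian with the shortest-lived protein, was the member that passed as lower under the full cocktail by edgeR. It was at 118 and 113 FPKM in DMSO and at 75.2 and 73.6 FPKM in 5C, a log2 fold change of -0.71 ± 0.18 (adjusted p = 0.0197). Removal gave 123 and 80.5 FPKM in 5C-G, 56.98 and 45.6 in 5C-C, 70.3 and 77.7 in 5C-E, 89.0 and 82.1 in 5C-F and 68.9 in 5C-S. Both 5C-G libraries were above 5C, but they were far apart from each other, and 5C-G A alone reached the DMSO level. Mcl1 rose in 5C-G against 5C by 0.57 ± 0.18 (adjusted p = 0.025). Its difference was -0.08 ± 0.18 in 5C-E (adjusted p = 0.902), 0.30 ± 0.18 in 5C-F (adjusted p = 0.293) and -0.38 ± 0.18 in 5C-C (adjusted p = 0.11). In 5C-C it passed as lower with total counts only (-0.54, adjusted p = 0.0368) and by limma (-0.54, adjusted p = 0.0365 and 0.037). Without any 1 of the 4 libraries of DMSO and 5C, the fall under the cocktail no longer passed, with adjusted p from 0.121 (without DMSO B) to 0.208 (without DMSO A) at log2 fold changes of -0.66 to -0.74. It was also lost with total counts only (-0.63, adjusted p = 0.0617) and by limma (-0.63, adjusted p = 0.0723 and 0.077). The rise in 5C-G no longer passed without 5C A, 5C B or 5C-G A, where it was between 0.34 and 0.57. It was also lost with total counts only (0.45, adjusted p = 0.097), with only the compared groups in the fit (0.57, adjusted p = 0.0756) and by limma (0.41, adjusted p = 0.111, and 0.42, adjusted p = 0.113).

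Bax, a pore-forming effector and a known target of p53, was lowest in 5C at 20.2 and 16.2 FPKM, against 23.2 and 26.5 FPKM in DMSO. It was at 50.9 and 56.3 FPKM in 5C-G, 30.8 and 63.4 in 5C-C, 26.1 and 45.7 in 5C-F, 23.6 and 28.1 in 5C-E and 29.6 in 5C-S. All libraries lacking 1 compound lay above both 5C libraries, and the pairs of 5C-C and 5C-F were widely spread. Bax rose against 5C by 1.70 ± 0.30 in 5C-G (adjusted p = 0.00065), 1.55 ± 0.30 in 5C-C (adjusted p = 0.000745) and 1.07 ± 0.29 in 5C-F (adjusted p = 0.0291). The difference was 0.44 ± 0.29 in 5C-E (adjusted p = 0.541) and -0.53 ± 0.29 between 5C and DMSO (adjusted p = 0.395).

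Bak1, the second effector, which sits on the mitochondrial membrane also in healthy cells, was also lowest in 5C. It was at 12.9 and 13.4 FPKM in DMSO and 8.76 and 7.87 FPKM in 5C, then at 19.3 and 26.2 in 5C-G, 16.9 and 22.6 in 5C-C, 13.03 and 18.9 in 5C-E, 13.5 and 16.2 in 5C-F and 13.9 in 5C-S. Both 5C libraries were below all 11 others. Bak1 rose against 5C by 1.60 ± 0.24 in 5C-G (adjusted p = 0.000184), 1.42 ± 0.24 in 5C-C (adjusted p = 0.000307) and 0.93 ± 0.24 in 5C-F (adjusted p = 0.0215). In 5C-E the difference was 0.87 ± 0.24 (adjusted p = 0.0601). It passed there by DESeq2 (0.88, adjusted p = 0.0135) and in other edgeR settings given below. Between 5C and DMSO the difference was -0.74 ± 0.24 (adjusted p = 0.0844). The latter passed by DESeq2 (-0.74, adjusted p = 0.0439), without a filter on low counts (-0.73, adjusted p = 0.0179), with the offset for GC content and length (-0.62, adjusted p = 0.041) and with only the compared groups in the fit (-0.74, adjusted p = 0.000189).

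The ratio of Bax to Bcl2, often used as a summary of this pathway, was 17.9 and 19.0 in DMSO and 15.3 and 15.2 in 5C on the FPKM scale. It was 57.7 and 84.5 in 5C-G, 72.2 and 126 in 5C-C, 24.3 and 28.1 in 5C-E, 31.7 and 47.6 in 5C-F and 46.4 in 5C-S. Every culture that lacked a compound had a higher ratio than all 4 libraries of DMSO and 5C. The numerator and the denominator are, however, unequal in composition, since the Bax transcript has a GC content of 59.4% and the Bcl2 transcript one of 46.6%. With the libraries put on a common trend of GC content and length, as described below, the ratio was 26.9 and 27.5 in DMSO, 24.5 and 23.5 in 5C, 51.7 and 45.9 in 5C-G, 45 and 49.3 in 5C-C, 35.5 and 32.6 in 5C-E, 36.9 and 38.0 in 5C-F and 45.4 in 5C-S. The order of DMSO and 5C against the other groups was the same, while the span from the lowest to the highest library shrank. Against Mcl1, the most abundant guardian, Bax stood at ratios of 0.197 and 0.235 in DMSO, 0.268 and 0.220 in 5C, 0.414 and 0.700 in 5C-G and 0.540 and 1.39 in 5C-C, and at 0.336 and 0.361 in 5C-E, 0.293 and 0.556 in 5C-F and 0.429 in 5C-S. Against Bcl2l1 the ratio of Bax was 0.493 and 0.561 in DMSO, 0.606 and 0.470 in 5C, 0.952 and 1.085 in 5C-G, 0.709 and 1.71 in 5C-C, 0.745 and 0.713 in 5C-E, 0.531 and 0.742 in 5C-F and 0.850 in 5C-S, so 5C-F A lay among the DMSO and 5C libraries. These ratios were not tested, as they combine genes tested one by one above.

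**Figure D2:**
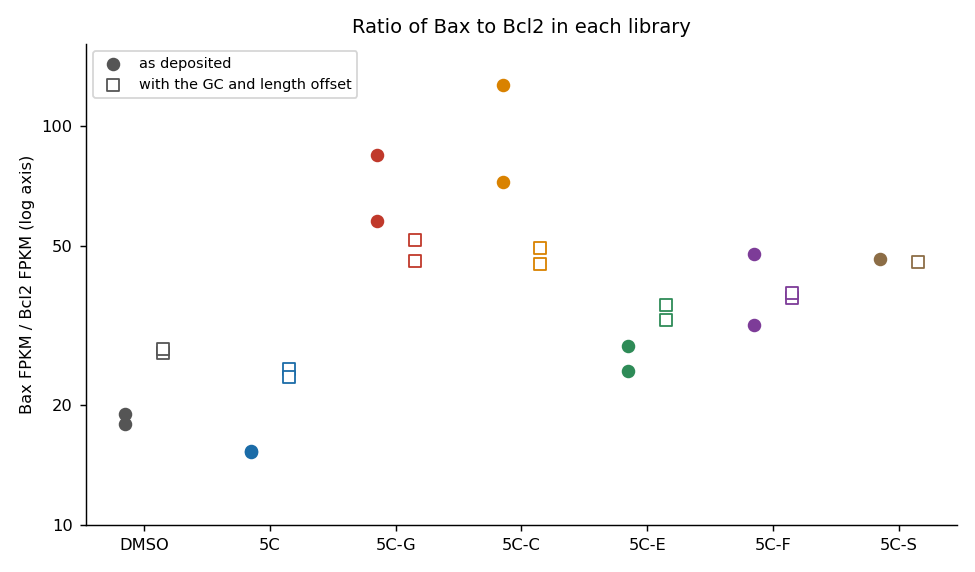
Ratio of Bax FPKM to Bcl2 FPKM (log axis) in each library by culture condition, as deposited (filled circles) and after the offset for GC content and length (open squares). DMSO and 5C lie below the other groups on both scales, and the highest value falls from 126 to 49.3 in 5C-C B with the offset.

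Among the BH3-only genes, Bcl2l11 fell in 5C-G and 5C-C, where the effectors rose, but its falls did not pass with the offset for GC content and length described below (-0.33, adjusted p = 0.183, and -0.34, adjusted p = 0.154). It encodes BIM, which binds all guardians and is a known target of FOXO factors, and it was at 4.58 and 4.61 FPKM in DMSO, 4.74 and 4.60 in 5C and 5.11 and 4.64 in 5C-E. It was at 3.12 and 2.30 FPKM in 5C-G, 2.40 and 2.33 in 5C-C, 3.70 and 3.03 in 5C-F and 3.72 in 5C-S. The libraries thus fell into a narrow upper band of DMSO, 5C and 5C-E and a lower one of the rest, without overlap. Bcl2l11 fell against 5C by 0.66 ± 0.19 on the log2 scale in 5C-G (adjusted p = 0.0169) and by 0.82 ± 0.19 in 5C-C (adjusted p = 0.00314). In 5C-F the difference was -0.37 ± 0.19 (adjusted p = 0.232), in 5C-E -0.01 ± 0.19 (95% interval -0.41 to 0.39) and between 5C and DMSO -0.05 ± 0.19 (95% interval -0.45 to 0.35). The fall in 5C-G did not pass without 5C A (-0.66, adjusted p = 0.0922), 5C B (-0.71, adjusted p = 0.0646) or 5C-G B (-0.54, adjusted p = 0.137).

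Bad and Bbc3 rose in 5C-G and 5C-C, as both effectors did, and by edgeR neither passed in 5C-F. Bad, whose protein neutralises BCL2 and BCL-XL when growth factor signals are missing, was at 10.5 and 12.3 FPKM in DMSO, 8.78 and 10.4 in 5C, 21.2 and 27.2 in 5C-G, 18.3 and 34.3 in 5C-C, 12.4 and 14.2 in 5C-E, 10.1 and 16.0 in 5C-F and 17.2 in 5C-S. It rose against 5C by 1.48 ± 0.28 in 5C-G (adjusted p = 0.00127) and by 1.63 ± 0.29 in 5C-C (adjusted p = 0.000388). The 5C-F pair overlapped 5C, and the difference of Bad there was 0.53 ± 0.28 (adjusted p = 0.246). Bbc3, which encodes PUMA, a classical p53 target, was at 7.72 and 6.92 FPKM in DMSO, 5.89 and 4.20 in 5C, 13.4 and 11.7 in 5C-G, 6.12 and 11.0 in 5C-C, 4.54 and 8.94 in 5C-E, 7.14 and 12.7 in 5C-F and 8.41 in 5C-S. It rose against 5C by 1.45 ± 0.34 in 5C-G (adjusted p = 0.00516) and by 0.94 ± 0.34 in 5C-C (adjusted p = 0.0382), and its difference was 1.06 ± 0.34 in 5C-F (adjusted p = 0.0538; without 5C-F A 1.39, adjusted p = 0.0421). In 5C-F Bbc3 also passed by DESeq2 (1.08, adjusted p = 0.0213), without a filter on low counts (1.07, adjusted p = 0.000987) and with only the compared groups in the fit (1.07, adjusted p = 0.0246). In 5C-C, library A was just above the higher 5C library, and without 5C-C B the difference was 0.41 (adjusted p = 0.444). It was also not passed without 5C A (1.18, adjusted p = 0.0639) or 5C B (0.76, adjusted p = 0.225), with total counts only (0.77, adjusted p = 0.0986), with only the compared groups in the fit (0.96, adjusted p = 0.052) or by limma (0.63, adjusted p = 0.133, and 0.71, adjusted p = 0.134), and with the offset for GC content and length described below it was at 0.11 (adjusted p = 0.807). In 5C-G the rise was lost without 5C B (1.19, adjusted p = 0.0822).

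In the edgeR fit of all 13 libraries with no offset, Bid and Pmaip1 passed in no comparison of a pair of groups. Bid, which caspase-8 cleaves to carry the death receptor signal to mitochondria, was at 3.99 and 4.47 FPKM in DMSO, 3.04 and 3.44 in 5C, 3.62 and 3.33 in 5C-G, 3.08 and 2.70 in 5C-C, 3.06 and 2.77 in 5C-E, 4.81 and 5.00 in 5C-F and 3.85 in 5C-S. Only the 5C-F libraries lay above DMSO, and their difference from 5C was 0.70 ± 0.22 (adjusted p = 0.051). That difference of Bid passed by DESeq2 (0.72, adjusted p = 0.012), by limma on log2(FPKM + 1) (0.48, adjusted p = 0.0484), with at least 10 counts in every library (adjusted p = 0.0389) and with only the compared groups in the fit (adjusted p = 0.0452). Against DMSO, Bid also passed as lower in 5C-E by DESeq2 (-0.68, adjusted p = 0.0221), with only the compared groups (-0.67, adjusted p = 0.0171) and with the offset for GC content and length (-0.70, adjusted p = 0.038). It did so in 5C-C by limma (-0.43, adjusted p = 0.0272, and -0.53, adjusted p = 0.0265) and with the offset (-0.59, adjusted p = 0.0424), and in 5C with only the compared groups (-0.46, adjusted p = 0.0476). Pmaip1, which encodes NOXA, a binder of MCL1, was at 5.85 and 5.88 FPKM in DMSO, 6.46 and 5.09 in 5C, 6.95 and 3.18 in 5C-G, 4.55 and 2.46 in 5C-C, 5.47 and 5.26 in 5C-E, 6.10 and 5.65 in 5C-F and 5.16 in 5C-S. Its 5C-G pair differed by 0.95 on the log2 scale, more than any other member in that group. Its difference from 5C with the largest size was -0.57 ± 0.31 in 5C-C (adjusted p = 0.165), and without 5C-C A it was -1.02 and passed (adjusted p = 0.0278). Asked whether its level differed anywhere among the 6 groups with 2 libraries, the other 9 genes passed the edgeR test and Pmaip1 did not (adjusted p = 0.397). In that test 45.6% of all genes passed. With the offset for GC content and length described below, 7 of the 10 passed it, where 40.4% of all genes did, and Bcl2 (adjusted p = 0.193), Bcl2l11 (adjusted p = 0.223) and Pmaip1 did not.

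The family was then counted as a whole. For 5C against DMSO, 1 of the 10 genes passed (Mcl1, lower), where 6.34% of all 19884 genes passed and 4.09% were lower. All 10 were on the lower side, with a median log2 fold change of -0.49 against 0.01 over all genes, and 3 had an unadjusted p under 0.05 (Bcl2l1, Mcl1 and Bak1), as did 17.2% of all genes. The macrophage marker sum fell in the same comparison from 4903 or more to 590 or less FPKM, and its part in these differences was not tested. When the fit held DMSO and 5C alone, 6 of the genes passed (Bcl2l1, Mcl1, Bax, Bak1, Bid and Bbc3), and so did 30.5% of the 16487 genes in that fit.

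Most calls in the family were made when the ROCK inhibitor or the PKD inhibitor was left out. In 5C-G against 5C, 7 of 10 passed, 6 higher (Bcl2l1, Mcl1, Bax, Bak1, Bad and Bbc3) and 1 lower (Bcl2l11), where 25.6% of all genes passed, 14.0% higher and 11.5% lower. Both effectors, 2 guardians and 2 BH3-only genes were thus on the higher side. Over all alternatives run, which include leaving out each of the 4 libraries, Bax was between 1.03 and 1.86. Bak1 was between 1.14 and 1.88 and Bad between 0.84 and 1.73. In 5C-C against 5C, 6 of 10 passed, 4 higher (Bax, Bak1, Bad and Bbc3) and 2 lower (Bcl2 and Bcl2l11), where 35.8% of all genes passed, 17.2% higher and 18.6% lower. With the GC and length offset the counts were 5 in 5C-G and 3 in 5C-C, beside 20.7% and 24.6% of all genes, and the median of the 10 genes in 5C-C was -0.07. Without it the median of the 10 genes was 0.67 in 5C-G and 0.20 in 5C-C, against -0.01 and 0.00 over all genes. No guardian passed as higher in 5C-C in the edgeR fit that gave these counts. Bcl2l1 did by DESeq2 (0.44, adjusted p = 0.0241) and by edgeR with at least 10 counts in every library (0.44, adjusted p = 0.0358). The test of whether Bcl2l1 and Mcl1 differ between 5C-G and 5C-C was not made. In these comparisons the macrophage marker sum was 5012 to 7073 FPKM in 5C-G and 979 to 1673 FPKM in 5C-C, against 505 to 590 FPKM in 5C, and the hepatocyte sum was 6819 to 8247 and 5033 to 5469 FPKM, against 11400 to 11510 FPKM in 5C. By group means 10 of 10 macrophage markers were higher in 5C-G and 8 of 10 in 5C-C, where Adgre1 (9.17 against 12.06 FPKM) and Ptprc (0.303 against 0.696 FPKM) were lower. Of 7 hepatocyte markers 6 were lower in both, and Apoa1 was higher, at 2481 FPKM in 5C-G and 1541 in 5C-C against 893 in 5C. The stellate cell and fibroblast sum was 1901 to 2303 FPKM in 5C-G against 1384 to 1391 FPKM in 5C, with 5 markers higher and 4 lower. The endothelial sum was 41.5 to 45.2 against 12.5 to 13.8 FPKM, with 3 markers higher and 3 lower. The part of these cell types in the changes was not tested.

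In the same edgeR fit removal of forskolin gave a smaller set, and removal of ETC-1002 none. In 5C-F against 5C, 3 of 10 passed, all higher (Bcl2l1, Bax and Bak1), where 10.7% of all genes passed and 5.69% were higher. These calls did not hold without 5C A, 5C B or 5C-F B. Such fits leave 1 library in a group, and they called fewer of all genes as well. Bax was then at 1.22, 0.94 and 0.66 and Bak1 at 0.99, 0.88 and 0.84, beside the values of Bcl2l1 given above. By limma Bax did not pass in 5C-F either (0.90, adjusted p = 0.079, and 0.93, adjusted p = 0.0853). The macrophage marker sum was 1607 to 1941 FPKM in 5C-F against 505 to 590 in 5C, with 10 of 10 markers higher, and the hepatocyte sum was 18170 to 22550 against 11400 to 11510 FPKM, with 5 of 7 higher and Cps1 and Asgr1 lower, and their part was not tested. In 5C-E against 5C, 0 of 10 passed in that fit, where 2.94% of all genes passed. Bak1 was the 1 gene with an unadjusted p under 0.05, as 14.5% of all genes had. DESeq2 called Bak1 (adjusted p = 0.0135), while limma on log2(FPKM + 1) called none. By edgeR Bak1 also passed with total counts only (0.94, adjusted p = 0.0356) and without a filter (0.90, adjusted p = 0.00216). It did so with only the compared groups in the fit (0.88, adjusted p = 0.00862), and without 5C-E A it was at 1.15. The 5C-S library, which has no replicate, was compared with the mean of 5C without a test. None of the 10 genes was beyond a log2 fold change of 1, where 18.9% of all genes were, and the differences ran from -0.92 for Bcl2 to 0.82 for Bad, with Bak1 at 0.73, Bbc3 at 0.72 and Bax at 0.68. Against 5C A alone, Bcl2 was at -1.05 and thus beyond it.

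**Figure D3:**
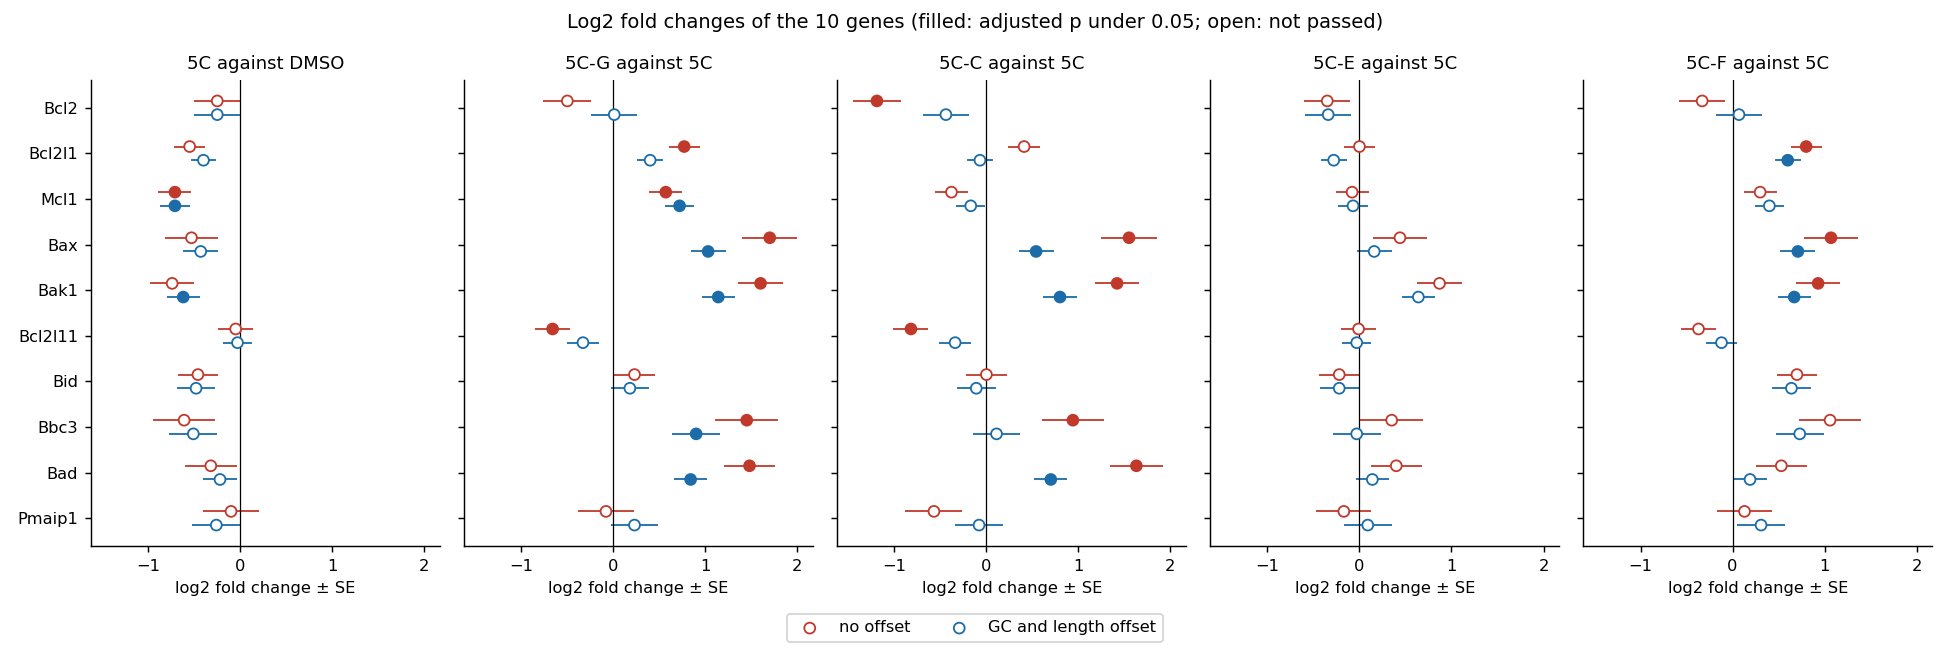
Log2 fold change ± SE of each gene in 5 comparisons, from the edgeR fit without (red) and with (blue) an offset for GC content and length, with filled points for adjusted p under 0.05. In 5C-G and 5C-C the blue points of Bax, Bak1 and Bad stay filled at between 0.54 and 1.14, and those of Bcl2 and Bcl2l11 are open.

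Set against the solvent, calls were made in the cultures lacking the ROCK or PKD inhibitor, and most of them ended under some alternative. In 5C-G against DMSO 4 of 10 passed, Bax (1.17 ± 0.29), Bak1 (0.87 ± 0.24) and Bad (1.16 ± 0.28) higher and Bcl2l11 (-0.71 ± 0.19) lower, where 14.5% of all genes passed, 7.63% higher and 6.85% lower. These calls did not hold without DMSO A, DMSO B or 5C-G B. Such fits leave 1 library in a group, and they called fewer of all genes as well. In this order Bax was then at 1.04, 1.27 and 1.00 and Bak1 at 0.80, 0.90 and 0.52. Bad was at 1.01, 1.27 and 0.86 and Bcl2l11 at -0.76, -0.71 and -0.59. In 5C-C against DMSO 6 of 10 passed, Bax (1.02 ± 0.29), Bak1 (0.68 ± 0.24) and Bad (1.31 ± 0.28) higher and Bcl2 (-1.44 ± 0.26), Bcl2l11 (-0.87 ± 0.19) and Mcl1 (-1.08 ± 0.18) lower, where 37.1% passed, 17.2% higher and 19.9% lower. With the GC and length offset Bax (0.12), Bak1 (0.18), Bad (0.48) and Bcl2l11 (-0.37, adjusted p = 0.105) did not pass in 5C-C. Without 5C-C B the 3 higher genes were at 0.37, 0.42 and 0.74 and no longer passed. Bax was not passed without DMSO A (0.96, adjusted p = 0.082), nor Bak1 without DMSO A (0.69, adjusted p = 0.134) or DMSO B (0.71, adjusted p = 0.115). By limma neither passed (Bax 0.81 and 0.83, Bak1 0.54 and 0.57), nor did Bax with only the compared groups in the fit (1.05, adjusted p = 0.0502) or Bak1 with total counts only (0.59, adjusted p = 0.0549). In 5C-E against DMSO Mcl1 alone passed (-0.79 ± 0.18, adjusted p = 0.00731), where 8.62% of all genes passed and 5.33% were lower, and it did not pass without DMSO A, DMSO B or 5C-E A. In 5C-F against DMSO 0 passed by edgeR, by DESeq2 or by limma, where 14.5% of all genes did by edgeR. Bcl2, Bcl2l11 and Mcl1 had an unadjusted p under 0.05 there, as did 27.8% of all genes. These comparisons share the DMSO libraries, as those above share 5C.

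A log2 fold change beyond 1 was reached by fewer of the genes that passed. Of the 10 genes, 4 did so in 5C-G against 5C (Bax, Bak1, Bad and Bbc3, where 13.1% of all genes did), 4 in 5C-C (Bax, Bak1, Bad and Bcl2, where 20.2% did), 1 in 5C-F (Bax, where 4.84% did) and 0 in 5C-E (1.96%). Against DMSO the count was 0 in 5C (4.55%), 2 in 5C-G (Bax and Bad, 5.83%), 4 in 5C-C (Bcl2, Mcl1, Bax and Bad, 22.1%), 0 in 5C-E (6.09%) and 0 in 5C-F (7.40%).

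The 10 genes split by base composition, and the split runs across their roles. Transcript GC content was 63.7% for Bbc3, 59.4% for Bax, 58.6% for Bad, 57.6% for Bcl2l1 and 57.1% for Bak1, and 50.5% for Bid, 49.0% for Mcl1, 48.0% for Bcl2l11, 46.6% for Bcl2 and 42.2% for Pmaip1. Against 5C, every gene that rose in 5C-C or 5C-F was among the first 5, as were all but Mcl1 of those that rose in 5C-G, and every gene that fell was among the last 5. In Bcl2 and Mcl1 the low GC content lies outside the protein-coding part, which has 60.9% and 64.6% GC against 45.01% and 42.8% in the rest of the transcript.

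All genes together showed the same trend. Over 19787 genes with a known GC content, the Spearman correlation across genes between GC content and log2 fold change was 0.41 for 5C-C, 0.35 for 5C-G and 5C-S, 0.32 for 5C-E and 0.26 for 5C-F against 5C, and -0.18 for 5C against DMSO. Over the 10 genes it was 0.85 for 5C-C and 5C-F, 0.82 for 5C-G, 0.81 for 5C-S and 0.73 for 5C-E, and -0.54 for 5C against DMSO. With the offset described below it was still 0.72 for 5C-G, 0.71 for 5C-C and 5C-F and 0.61 for 5C-S, and it was 0.30 for 5C-E and -0.30 for 5C against DMSO. These are descriptions across genes that share the same libraries and the same 5C denominator, not tests. In 5C-C, genes with a median GC content of 58.7% had a median log2 fold change of 0.65 and those with 47.7% one of -0.24, beside 1.63 for Bad and -0.82 for Bcl2l11. Libraries of 1 group differed along GC content too, with a correlation between GC content and the B minus A difference of the 10 genes of 0.71 in 5C-C, 0.87 in 5C-F, 0.73 in 5C-E and 0.68 in 5C-G, but 0.07 in DMSO and 0.02 in 5C. The B library of 5C-C was 1.10 above A for Bax, 0.97 for Bad and 0.91 for Bbc3 on the log2 scale, and 0.82 below it for Pmaip1.

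**Figure D4:**
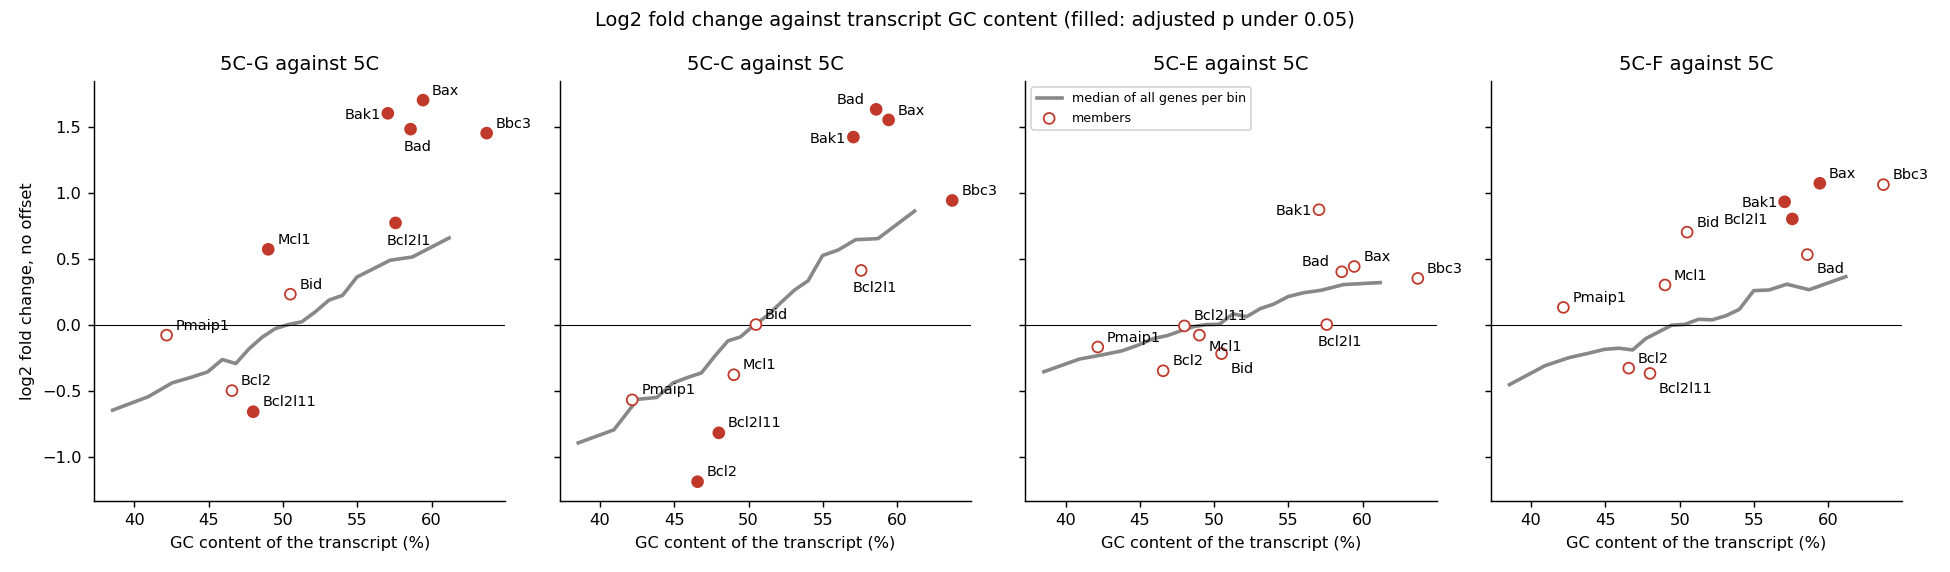
Log2 fold change against 5C without the offset (vertical axis) by GC content of the transcript in percent (horizontal axis) for the 10 genes (points, filled where adjusted p was under 0.05), with a line through the medians of all genes in 20 bins of GC content. The line ends higher than it starts in all 4 comparisons, and in 5C-C Bak1, Bad and Bax lie above it while Bcl2l11 and Bcl2 lie below.

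The tests were therefore repeated with an offset for each library's smooth trend with GC content and transcript length, estimated over all genes. It takes out a difference that follows this trend whatever its source, so a change that is carried by many GC-rich genes would be reduced with it. In 5C-G against 5C, 5 of 10 genes passed with the offset, all higher, where 20.7% of all genes passed and 13.2% were higher: Bak1 at 1.14 ± 0.18 (adjusted p = 0.000185), Bax at 1.03 ± 0.19 (adjusted p = 0.000636), Bbc3 at 0.90 ± 0.26 (adjusted p = 0.0176), Bad at 0.84 ± 0.18 (adjusted p = 0.00298) and Mcl1 at 0.72 ± 0.16 (adjusted p = 0.00277). Bcl2l1 was at 0.40 ± 0.14 (adjusted p = 0.0609) and Bcl2l11 at -0.33 ± 0.17 (adjusted p = 0.183). In 5C-C against 5C, 3 of 10 passed, where 24.6% of all genes did and 14.0% were higher: Bak1 at 0.80 ± 0.18 (adjusted p = 0.00323), Bad at 0.70 ± 0.18 (adjusted p = 0.00899) and Bax at 0.54 ± 0.19 (adjusted p = 0.0396). Bcl2 was at -0.44 ± 0.25 (adjusted p = 0.233), Bcl2l11 at -0.34 ± 0.17 (adjusted p = 0.154) and Bbc3 at 0.11 ± 0.26 (adjusted p = 0.807).

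In 5C-F against 5C the 3 genes that passed without the offset also passed with it, where 10.9% of all genes passed and 7.21% were higher. Bax was at 0.71 ± 0.19, Bak1 at 0.67 ± 0.18 and Bcl2l1 at 0.60 ± 0.14. In 5C against DMSO, 2 passed, where 7.91% of all genes did and 4.78% were lower, Mcl1 at -0.71 ± 0.16 (adjusted p = 0.00576) and Bak1 at -0.62 ± 0.18 (adjusted p = 0.041). In 5C-E against 5C, 0 passed in edgeR, where 3.48% of all genes did, with Bak1 at 0.64 ± 0.18 (adjusted p = 0.0624). Against DMSO, 2 passed in 5C-G (Bax and Bad, both higher, where 9.77% of all genes did and 6.40% were higher), and 4 in 5C-C (Bcl2, Bcl2l1, Mcl1 and Bid, all lower, where 29.6% did and 13.9% were lower). In 5C-E against DMSO, 3 passed (Bcl2l1, Mcl1 and Bid, all lower, where 11.1% did and 7.15% were lower), and in 5C-F against DMSO 0 passed, where 15.1% did.

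Other genes of the cell death pathways were read from lists chosen by name. Their counts stand beside the shares of all genes that passed in the same comparisons, 6.34% in 5C against DMSO and 25.6%, 35.8%, 10.7% and 2.94% in 5C-G, 5C-C, 5C-F and 5C-E against 5C. Of 14 further BCL2 family genes, 13 were listed in the tables and 12 tested. In 5C against DMSO, 1 rose and 1 fell: Bmf, a BH3-only gene known from loss of cell attachment, was higher by 0.94 ± 0.25 (adjusted p = 0.027) and Bcl2a1a, a guardian of blood cells, lower at -2.44 ± 0.41 (adjusted p = 0.000716). In 5C-G against 5C, 4 rose and 2 fell, among them Bcl2a1a (3.02 ± 0.41), Bcl2a1b (2.65 ± 0.50) and Bok, a BAX-like effector (1.39 ± 0.25), which rose, and Bmf (-1.78 ± 0.25), which fell. The Bcl2a1 genes are near-identical copies, so their reads may have been split. The macrophage marker sum given above was lower in 5C than in DMSO and higher in 5C-G than in 5C, as these genes were. In 5C-C the sum was also above 5C, though Adgre1 and Ptprc were not, and there Bcl2a1a was at 1.45 and 2.38 FPKM against 1.89 and 1.91, Bcl2a1b at a mean of 4.17 against 3.34 FPKM, and Bcl2a1d at 0.996 and 1.55 FPKM against 2.52 and 3.21. The part of the macrophages was not tested. In 5C-C, 1 rose (Bok, 0.96 ± 0.25) and 1 fell (Bmf, -0.90 ± 0.25), and in 5C-F, 1 rose (Bcl2a1a, 1.60 ± 0.40) and 1 fell (Bmf, -0.80 ± 0.24), while in 5C-E 0 of 12 passed by edgeR. With the offset, Bok in 5C-C was at 0.01, while Bmf kept its fall in 5C-G (-1.81), 5C-C (-0.91) and 5C-F (-0.78). The medians of the 12 genes were -0.12, 0.23, -0.13, 0.09 and 0.00 in 5C, 5C-G, 5C-C, 5C-F and 5C-E in this order.

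Caspases and mitochondrial factors act downstream of the pores. Of 13 genes for the apoptosome, caspases and mitochondrial factors, 0 passed in 5C against DMSO or in 5C-E, 2 rose in 5C-G, 2 rose and 3 fell in 5C-C, and 2 rose in 5C-F. In 5C-G these were Htra2, a mitochondrial protease (1.19 ± 0.20, adjusted p = 0.000382), and Endog, a mitochondrial nuclease (1.17 ± 0.31, adjusted p = 0.0116). In 5C-C the scaffold Apaf1 (-0.86 ± 0.22), Casp2 (-1.01 ± 0.26) and Casp9, the initiator caspase that Apaf1 recruits (-0.72 ± 0.20), fell, and Endog (1.17 ± 0.31) rose. In 5C-F the rises were those of Cycs, which encodes cytochrome c (0.63 ± 0.19, adjusted p = 0.04), and Aifm1 (0.61 ± 0.18, adjusted p = 0.0367). With the offset Casp9 and Casp2 were at -0.80 and -0.71 in 5C-C and passed, whereas Apaf1 was at -0.15 and Endog at 0.08 there and at 0.42 in 5C-G (adjusted p = 0.315), and did not pass. The list's median was between -0.11 and 0.19 in these comparisons.

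Among 9 inhibitors of apoptosis, Xiap, the inhibitor of caspase-3 and caspase-9, fell against 5C in 5C-G (-1.14 ± 0.22) and in 5C-C (-2.07 ± 0.23). Birc5, which encodes the mitotic protein survivin, rose by 1.62 ± 0.35 in 5C-G and by 2.85 ± 0.36 in 5C-C. In the edgeR fit without the offset, 3 of the 9 rose and 2 fell in 5C-G, and 1 rose and 3 fell in 5C-C. In that fit 0 passed in 5C-E or 5C-F, where Xiap was at -0.51 (adjusted p = 0.273) and -0.69 (adjusted p = 0.0523). With the offset, Xiap was at -0.42 in 5C-G and -0.99 in 5C-C, and passed in both. In 5C against DMSO, 4 fell, Naip1 (-3.56 ± 0.54), Naip5 (-2.34 ± 0.35), Naip6 (-1.94 ± 0.43) and Naip2 (-0.92 ± 0.20), which are near-identical inflammasome sensors whose reads may be split. The macrophage marker sum was 4903 to 4928 FPKM in DMSO and 505 to 590 FPKM in 5C. It was higher in 5C-G, where Naip5 rose (1.39 ± 0.35). In 5C-C it was also above 5C, at 979 to 1673 FPKM, but Naip6 fell there (-2.54 ± 0.48, and -1.67 with the offset). In 5C-F it was 1607 to 1941 FPKM, and Naip2 was at 0.60 ± 0.20 (adjusted p = 0.0657) and with the offset at 0.98 (adjusted p = 0.00589). The part of the macrophages was not tested. The median of the list was -0.46 in 5C against DMSO, and against 5C it was 0.41 in 5C-G, 0.02 in 5C-F, -0.22 in 5C-C and 0.19 in 5C-E.

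Of the death receptor list, 8 of 9 genes were tested and none passed in 5C against DMSO or in 5C-E. Tnfrsf1a, the TNF receptor, rose in 5C-G (0.68 ± 0.18, adjusted p = 0.00851) and 5C-C (0.75 ± 0.18, adjusted p = 0.00299), together with its adaptor Tradd (0.74 ± 0.24 and 0.87 ± 0.24). Cflar, which blocks caspase-8, fell in 5C-C (-0.87 ± 0.18, adjusted p = 0.00116) and 5C-F (-0.59 ± 0.18, adjusted p = 0.0412), and Fadd rose in 5C-C (0.73 ± 0.25). With the offset Fadd alone of these still passed (0.84, adjusted p = 0.016), with Tnfrsf1a at 0.27 and 0.18, Tradd at 0.22 and 0.11 and Cflar at -0.05 and -0.17. The medians lay between -0.22 and 0.25.

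The regulator list holds 10 genes around the transcription of BH3-only genes, of which Mdm2 and Cdkn1a are not transcription factors. From this list Ddit3, which encodes the stress factor CHOP, passed in 4 of the 5 comparisons. It fell under 5C against DMSO by 0.84 ± 0.24 on the log2 scale (adjusted p = 0.0432) and rose against 5C in 5C-G (1.61 ± 0.24), 5C-C (2.69 ± 0.25) and 5C-F (1.23 ± 0.24), and with the offset it still passed at 1.05, 1.94 and 0.95. Foxo1, whose product can activate Bcl2l11, fell in 5C-G (-1.47 ± 0.21) and 5C-C (-1.53 ± 0.21), and with the offset it was at -1.0 and -0.84 and passed in both, whereas Bcl2l11 did not pass with the offset in either (-0.33 and -0.34). Jun fell under 5C by 1.06 ± 0.21 and rose in 5C-G by 1.05 ± 0.21, Cdkn1a rose in 5C-G by 0.96 ± 0.16, and Foxo3 (-0.64 ± 0.19) and Mdm2 (-0.57 ± 0.18) fell in 5C-C. With the offset Foxo3 (-0.42, adjusted p = 0.0678) and Mdm2 (-0.25, adjusted p = 0.237) did not pass. Of the list 2 fell in 5C, 4 rose and 1 fell in 5C-G, 1 rose and 3 fell in 5C-C, and 1 rose in 5C-F. In 5C-E 0 passed in the edgeR fit without the offset, with Ddit3 at 0.87 ± 0.24 (adjusted p = 0.058), and with the offset Foxo1 fell (-0.63, adjusted p = 0.0346). The medians were -0.33, 0.29, 0.01, 0.24 and 0.09 for 5C, 5C-G, 5C-C, 5C-F and 5C-E.

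Of 6 genes that control the stability of MCL1 and BIM protein, Usp9x, which removes ubiquitin from MCL1, fell in 5C-G (-1.69 ± 0.34), 5C-C (-2.31 ± 0.35) and 5C-F (-1.44 ± 0.34). Huwe1, a ligase that marks MCL1 for degradation, fell in 5C-G (-0.96 ± 0.16) and 5C-C (-0.85 ± 0.16), Fbxw7, another such ligase, in 5C-C (-0.89 ± 0.21) and Usp13 in 5C-F (-1.13 ± 0.20). Enzymes of opposite effect on MCL1 thus fell in the same cultures. With the offset Usp9x was at -0.87, -1.05 and -0.75 and passed in all 3, whereas Huwe1 was at -0.29 and 0.06 and Fbxw7 at -0.26. None of the 6 rose in the 5 comparisons by edgeR without the offset, and 0 passed in 5C against DMSO or 5C-E. The medians were -0.04, -0.22, -0.81, -0.22 and -0.03 for 5C, 5C-G, 5C-C, 5C-F and 5C-E.

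Where none of a list passed by edgeR, the counts at an unadjusted p under 0.05 and by the other tools were as follows. In 5C-E against 5C, 14.5% of all genes had such a p. So had 0 of 12 further BCL2 family genes, 0 of 13 apoptosome genes and 1 of 8 death receptor genes (Tnfrsf1a). It was found for 3 of 9 inhibitors of apoptosis (Xiap, Birc5 and Naip1) and 1 of 6 turnover genes (Fbxw7). From the regulator list it was found for 2 of 10 genes (Foxo1 and Ddit3). There DESeq2 and limma each called 1 gene of the regulator list and 0 genes of the other lists. In 5C against DMSO (17.2% of all genes), 2 apoptosome genes (Casp6 and Htra2) had an unadjusted p under 0.05, of which DESeq2 called 1 and limma 0, and no death receptor or turnover gene did or was called by either tool. In 5C-F against 5C (26.0% of all genes), 2 of 9 inhibitors of apoptosis (Xiap and Naip2) had such a p, and DESeq2 called 2 and limma 0.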

How the data were processed

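RNA was sequenced from 13 libraries in 7 groups of mouse dHeps at day 16. The authors deposited raw counts and FPKM values by gene in separate tables, on build GRCm39. Their processing notes name featureCounts, Subread and DESeq2, and the annotation release and strand setting were not given in the sources used here. FPKM was the deposited count scaled by length and depth, since 1 length per gene, within 0.2%, explained the ratio of both tables for 27140 genes. Columns were assigned to groups by name. The members and lists were chosen with earlier results of these data known.

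Counts were tested with edgeR 4.0.16 (quasi-likelihood, TMM, filterByExpr with a minimum count of 10) in R 4.3.3. All 13 libraries entered 1 fit (common BCV, the biological coefficient of variation, 0.261), with 6 residual degrees of freedom, and p-values were adjusted by Benjamini-Hochberg over 19884 genes. A gene passed at an adjusted p under 0.05. A difference against the single 5C-S library is a log2 fold change without a test. The GC and length offset used transcripts of GENCODE M39 for 19787 genes, with splines of 5 and 4 degrees of freedom fitted per library. Alternatives were other scalings, filters and group subsets, DESeq2 1.42.0, limma 3.58.1 on log2(FPKM + 1) and on log2(FPKM + 0.1), and leaving out each library. Members, and for the lists the 4 passing genes with the smallest p (2 where none passed), were named. On data simulated for 5C-G against 5C over 18910 genes, edgeR called 58 of 100 genes changed by a log2 fold of 1, 96 of 100 changed by 2, and 0.0534% of unchanged genes.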

Additional observations from a re-analysis of the deposited data

How the results depend on the processing

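All 10 genes had enough counts to be tested. Among the limits are the 2 libraries per group, 1 for 5C-S, and the trend with GC content. No paired analysis was possible because the library letters and column numbers do not link samples across groups. Of 1360 results of single genes under an alternative, 1150 stayed the same, 87 lost and 44 gained a call, 59 changed sign and 20 values without a test moved. For a pair of groups, the same meant an unchanged direction and side of the threshold. For the test over 6 groups it meant the side of the threshold alone. For 5C-S it meant a shift smaller than the SD of the 5C libraries on the log2 scale. Bax, Bak1 and Bad in 5C-G and in 5C-C against 5C passed under every alternative run, with the highest adjusted p at 0.0396. The causes of the changes listed here were not tested.

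The share of all genes that passed also moved with the setting. It was 6.34% in 5C against DMSO, but 6.06% with total counts only, 6.44% without a filter, 7.91% with the offset, 6.41% by DESeq2, 8.57% and 7.83% by limma and 30.5% with only the compared groups. In 5C-E against 5C it was 2.94%, but 2.90% with total counts only, 4.04% without a filter, 3.99% by DESeq2 and 13.9% with only the compared groups. By DESeq2 and with only the compared groups it was 11.7% and 18% in 5C-F against 5C (10.7%) and 7.94% and 21.5% in 5C-E against DMSO (8.62%), where limma gave 11.3% and 10.5%.

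The number of the 10 genes that passed in 5C against DMSO was 1, and it was 0 with total counts only, 2 without a filter on low counts, 2 with the GC and length offset, 3 by DESeq2, 0 by limma with either pseudocount, 6 with only the compared groups in the fit and 0 when a log2 fold change beyond 1 was also required. In 5C-G against 5C it was 7, and 6 with total counts only (24.7% of all genes), by limma (36.4% and 35.0%) or with only the compared groups (24.9%), and 4 with the fold change required. In 5C-C against 5C it was 6, and 3 with the offset. In 5C-E against 5C it was 0, and 1 with total counts only, without a filter, by DESeq2 and with only the compared groups. In 5C-F against 5C it was 3, and 5 by DESeq2, 5 with only the compared groups and 1 with the fold change required. In 5C-G against DMSO it was 4, and 2 with the offset or with the fold change required. It was 5 without a filter (14.0% of all genes) and 3 with only the compared groups (7.37%). It was also 5 by DESeq2 (14.8%) or with at least 10 counts in every library (23.7%), where Bcl2 passed as lower. In 5C-C against DMSO it was 6, and 5 with total counts only (35.7% of all genes), by limma (49.9% and 49.5%) or with only the compared groups (42.7%). In 5C-E against DMSO it was 1, and 3 with the offset, 3 by DESeq2, 0 by limma, 4 with only the compared groups and 0 with the fold change required. When a library of the compared groups was left out, 1 library remained in a group and was assumed to vary like the other groups. In most comparisons the number of the 10 genes that passed then moved, as did that of all genes, so it is not given. Leaving out a library of another group moved it too, among others in 5C against DMSO, 5C-E and 5C-F against 5C and 5C-E against DMSO. For 5C-S, which had no test, the number of genes beyond a log2 fold change of 1 was 0 without 5C A and 1 without 5C B.

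Signs changed in differences that had not passed, not all of them near 0. With the offset, Bcl2 went from -0.50 to 0.01 and Pmaip1 from -0.08 to 0.23 in 5C-G, Bcl2l1 from 0.41 to -0.07 in 5C-C, Bbc3 from 0.35 to -0.03 and Pmaip1 from -0.17 to 0.09 in 5C-E, and Bcl2 from -0.33 to 0.07 in 5C-F against 5C. Against DMSO, Bcl2l1 went from 0.22 to -0.01 and Mcl1 from -0.14 to 0.01 in 5C-G, Bbc3 from 0.33 to -0.40 in 5C-C, and Bad from 0.08 to -0.07 in 5C-E and from 0.21 to -0.03 in 5C-F. With total counts only or limma, Bcl2l11 was at 0.02 in 5C against DMSO. Bid in 5C-C against 5C was at 0.01 without a filter or with only the compared groups, and 0.03 by DESeq2 or with at least 10 counts in every library. In 5C-E against 5C, Bcl2l1 was between 0.00 and 0.07 (0.07 with total counts only, 0.02 without a filter, 0.01 with at least 10 counts or DESeq2, 0.06 by limma) and Bcl2l11 at 0.06 (total counts only), 0.02 (no filter), 0.01 (at least 10 counts) and 0.05 and 0.06 (limma). In 5C-E against DMSO, Bcl2l11 was at 0.09 with total counts only and at 0.07 and 0.08 by limma, and Bax at 0.06 and 0.05.

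Leaving out a library gave ranges across 0 for Pmaip1 in 5C against DMSO (-0.26 to 0.05), 5C-G (-0.63 to 0.31) and 5C-F (-0.01 to 0.29) against 5C, and 5C-G (-0.74 to 0.21) and 5C-F (-0.07 to 0.12) against DMSO. Against 5C, the same held for Bid in 5C-C (-0.11 to 0.13), and in 5C-E for Bcl2l1 (-0.17 to 0.17), Bcl2l11 (-0.05 to 0.06), Mcl1 (-0.15 to 0.02) and Bbc3 (-0.22 to 0.79). Against DMSO it held for Mcl1 in 5C-G (-0.37 to 0.06), Bbc3 in 5C-C (-0.20 to 0.73), Bad in 5C-F (-0.11 to 0.47), and in 5C-E for Bcl2l11 (-0.09 to 0.01), Bax (-0.22 to 0.07), Bak1 (-0.16 to 0.42), Bad (-0.02 to 0.21) and Bbc3 (-0.83 to 0.18).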
